A study of Mus musculus with 2 samples.

Results

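The genes described here mark T cells and cytotoxic lymphocytes in the colon, namely the CD3 subunits Cd3d, Cd3e and Cd3g, the coreceptors Cd4, Cd8a and Cd8b1, the granule proteins Gzma, Gzmb and Prf1, and the integrin subunit Itgae. They are a list of named genes, with no threshold on signal or ratio, but chosen with earlier results of these data known. All 10 had a probe, among 22909 genes with a probe and 14679 with a usable value. RNA of whole colon from C57BL/6 mice, 8 weeks old by the study's methods, was labelled with Cy3 and hybridized to Agilent mouse expression arrays. One array held Villin-Cre control mice. The other held mice of the genotype Villin-Cre; EP4flox/flox (EP4 cKO), whose epithelial cells of the intestine make Cre and lose the floxed stretch of Ptger4, which encodes the prostaglandin E2 receptor EP4. Cre is therefore carried by both groups, the floxed alleles by EP4 cKO mice only, and lymphocytes are not the target of the deletion. According to the labels 3 pools of colon were combined for each array, so that a genotype is 1 array, its differences cannot be checked between replicates and no test was made.

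The CD3 subunits pair with the T cell receptor and carry its signal into the cell, so that CD3 marks T cells of every kind. CD4 and CD8 help the receptor to bind class II and class I MHC, and divide helper from cytotoxic T cells. Cytotoxic T cells and natural killer (NK) cells store perforin, which opens membranes, and granzymes, the proteases that enter through them. Many T cells of the gut lie within the epithelium, where the integrin αEβ7 (Itgae with Itgb7) binds E-cadherin of the epithelial cells.

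Signals are the background-subtracted intensities of the scanner software, scaled to a trimmed mean of 2500 on each array, in arbitrary units. Where a pair of signals is given, the Villin-Cre signal comes first. The error given with a signal or a ratio is the scanner software's estimate for the spot and leaves out the spread between mice. A log2 ratio is EP4 cKO over Villin-Cre by the brightest probe of a gene. For a probe that stood well above background on 1 of the arrays, the dim side was set to its own signal or to the lowest such signal of that array (125 for Villin-Cre, 57.8 for EP4 cKO), whichever was higher, so its fold is given as "at least". Where this gave no fold above 1, the log2 ratio was set to 0. Probes that were not well above background on an array are called near background there, by the flag of the scanner software.

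Each array held 56593 usable gene probes, of which 45.4% (Villin-Cre) and 51.6% (EP4 cKO) were well above background. Ptger4 itself was not clearly lower on the array labelled EP4 cKO. Its brighter probe read 6227 ± 624 in Villin-Cre colon and 5661 ± 566 in EP4 cKO colon (log2 ratio -0.14 ± 0.20), and its dimmer probe 393 ± 49.4 and 592 ± 60.8 (0.59 ± 0.23). Whether these probes lie in the floxed part was not determined, and the direction of every ratio rests on the labels. The epithelial list was measured in full (14 of 14 genes) with a median log2 ratio of 0.08. Of 9 smooth muscle genes 6 had a value, with a median of 0.19, and 5 of these were measured on both arrays. Acta2 read 18006 and 27719 by its brighter probe (the other had the opposite sign). Of the 5, Cnn1 alone was past 2-fold (479 and 72.3, 6.62-fold lower). Myh11, Lmod1 and Synpo2 were near background on both arrays.

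The granzymes Gzma and Gzmb and the T cell genes Itgae, Cd8b1 and Cd3g were higher in colon labelled EP4 cKO, and perforin was lower. Thus 5 of the 10 genes were past 2-fold higher, with Gzmb and Itgae as bounds, and 1 was past 2-fold lower (Prf1). Cd3d, Cd3e and Cd4 lay within 2-fold by their brighter probes. Cd8a had no measured ratio, and its value was set to 0. For comparison, 4.88% of all 14679 genes were past 2-fold higher and 7.98% past 2-fold lower. With only probes well above background on both arrays, 3 of 7 genes were past 2-fold higher (against 4.05% of all genes). In the same setting 1 was past 2-fold lower (against 6.27%). The list was chosen with earlier results of these data known, so these comparisons are not independent of the data. The median log2 ratio of the 10 genes was 0.73 and that of all genes -0.10. The list does not move as a block: over the 7 genes measured on both arrays the median was 0.18, with values from -2.16 to 3.60. In RNA of whole tissue, fewer cells of a type and less RNA per cell cannot be told apart.

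**Figure D1:**
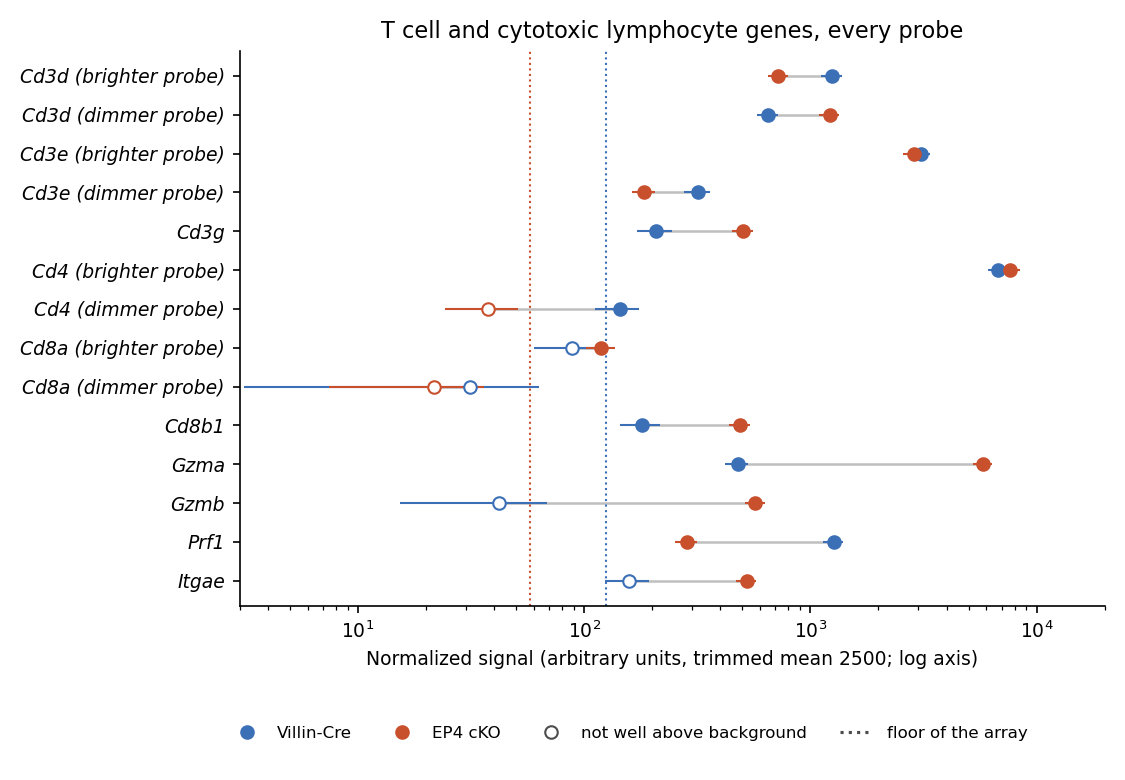
Normalized signal (arbitrary units, log axis) of all 14 probes of the 10 genes on each array, with bars for the error of the scanner software (the lower bar of a signal no larger than its error is cut at 10% of that signal). Open symbols are signals not well above background, and dotted lines are the floor of each array. Gzma and Prf1 lie farthest apart between the arrays among probes measured on both, in opposite directions.

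The promoter windows of the granule genes are shown first, since these genes carry the largest differences and did not move one way. Each runs from 250 bases before to 50 bases after the RefSeq start on GRCm38.p6, 5′ to 3′ along the gene: Gzma at chr13:113100932-113101231 (minus strand), Gzmb at chr14:56262285-56262584 (minus strand) and Prf1 at chr10:61297586-61297885 (plus strand). Capitals mark matches, on either strand, to the letters TGTGGT (Runx), AGGAAGT (Ets) and TCACAC (T-box), motifs of factor families active in lymphocytes.
Gzma: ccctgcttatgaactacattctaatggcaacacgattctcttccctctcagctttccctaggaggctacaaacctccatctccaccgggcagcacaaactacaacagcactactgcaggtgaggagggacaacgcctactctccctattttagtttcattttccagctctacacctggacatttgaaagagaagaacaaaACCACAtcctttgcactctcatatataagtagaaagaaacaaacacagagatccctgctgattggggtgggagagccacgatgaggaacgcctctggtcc
Gzmb: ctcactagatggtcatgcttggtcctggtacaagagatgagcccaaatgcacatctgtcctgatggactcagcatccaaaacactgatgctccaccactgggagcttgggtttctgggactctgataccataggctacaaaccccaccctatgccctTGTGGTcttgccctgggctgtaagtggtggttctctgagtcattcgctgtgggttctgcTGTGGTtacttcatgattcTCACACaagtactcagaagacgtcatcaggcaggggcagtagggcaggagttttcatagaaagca
Prf1: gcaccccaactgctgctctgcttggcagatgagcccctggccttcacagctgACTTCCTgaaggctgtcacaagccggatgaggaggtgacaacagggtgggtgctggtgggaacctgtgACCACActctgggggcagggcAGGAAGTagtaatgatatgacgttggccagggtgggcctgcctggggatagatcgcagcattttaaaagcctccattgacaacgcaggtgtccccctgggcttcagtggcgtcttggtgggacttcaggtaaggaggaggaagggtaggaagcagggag
The Runx letters occurred in all 3 granule windows, 50 bases before the start in Gzma, 93 and 34 bases before it in Gzmb and 130 bases before it in Prf1. Among 32851 promoter windows of the same length 16.8% held them. The Ets letters occurred at 2 places in Prf1 only of the 3 (9.35% of all windows) and the T-box letters at 1 place in Gzmb only (14.5% of all windows), and no match overlapped another. Gzma and Prf1, whose signals differed in opposite directions, thus share the Runx letters, and a match of letters is not a bound site.

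Granzyme A, a protease that cuts after basic residues, had the highest ratio of the 10 genes. Gzma read 476 ± 55.9 in Villin-Cre colon and 5795 ± 580 in EP4 cKO colon, a 12.2-fold difference (log2 ratio 3.60 ± 0.22). Both signals were well above background, and the gap was many times the scanner error. Gzma ranked 72nd from the top of 14679 genes, with 0.484% of genes higher. Among genes in the same decile of mean signal, 3.89% were more than 2-fold higher.

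Granzyme B, which cuts after aspartate and activates caspases, was also higher. Gzmb read 42.0 ± 26.7 on the Villin-Cre array, not well above background, and 572 ± 58.4 on the EP4 cKO array, which makes it at least 4.56-fold higher (log2 ratio of at least 2.19). By this bound 1.19% of genes had a higher value, a rank set by the Villin-Cre floor of 125 and not by a measured ratio. The Villin-Cre signal was less than 2 times its scanner error, so the bound and not the ratio of the signals (3.77 on the log2 scale) is used.

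Perforin went the other way. Prf1 read 1269 ± 130 in Villin-Cre colon and 284 ± 31.3 in EP4 cKO colon, 4.47-fold lower (log2 ratio -2.16 ± 0.22), and both signals were well above background. It ranked 294th from the bottom, with 2.0% of genes lower. Among genes of its decile of signal 9.88% were past 2-fold lower and 5.11% past 2-fold higher. Gzma, Gzmb and Prf1 each had a single probe, so no second probe bears on their directions.

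Of 20 other genes of the cytotoxic granule and its release 11 had a value, with a median log2 ratio of 0.85. Past 2-fold were 3 higher (27.3%, against 4.88% of all genes) and 1 lower (9.09%, against 7.98%). Srgn, the proteoglycan core that packs granule contents, read 329 and 1002 (log2 ratio 1.61). Nkg7, a granule membrane protein of cytotoxic cells, read 456 and 1218 (1.42). Serpinb9, which inhibits granzyme B, read 256 and 627 (1.29). The granzyme Gzmm was lower, at 180 and 84.2 (-1.09). Both signals were close to the floors of their arrays (125 and 57.8). In decile 1 of mean signal, the lowest, 13.6% of genes were past 2-fold lower. Of the further granzymes, Gzmd, Gzme, Gzmf, Gzmg, Gzmk and Gzmn were not well above background on either array, like the death ligand gene Fasl, and Gzmc exceeded it on the EP4 cKO array only, with no fold above 1. Srgn is also made by mast cells and other leukocytes and is not particular to cytotoxic cells.

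**Figure D2:**
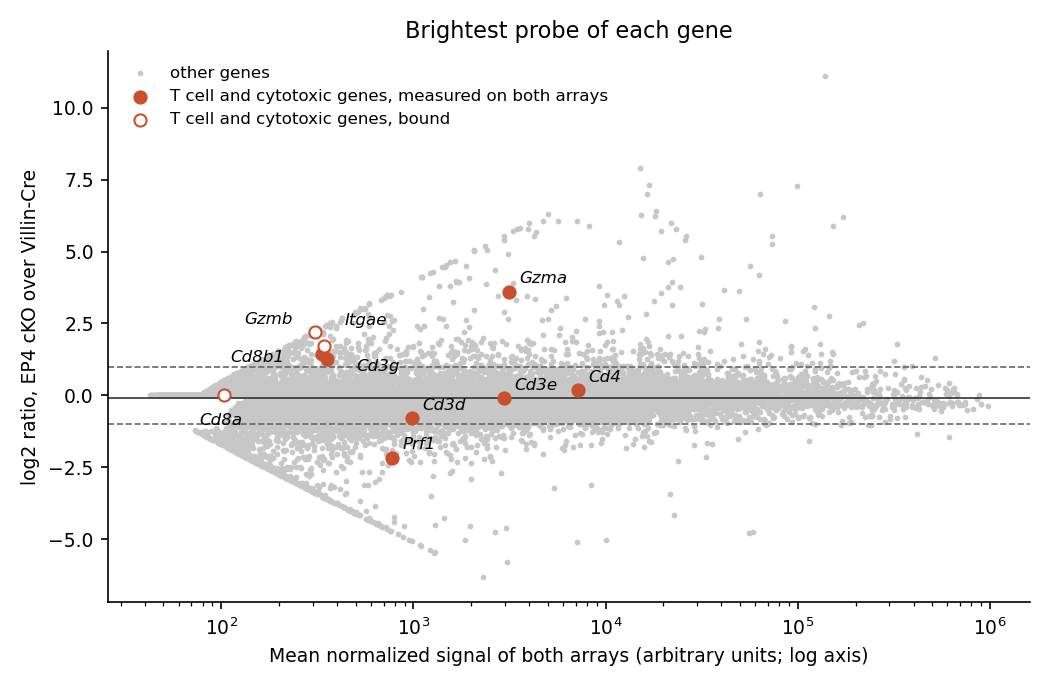
Log2 ratio of EP4 cKO over Villin-Cre against mean normalized signal of both arrays (arbitrary units, log axis) for the brightest probe of 14679 genes, with the 10 T cell and cytotoxic genes in orange (open where the value is a bound). The solid line is the median of all genes at -0.10 and dashed lines mark 2-fold; Gzma stands at 3.60, Prf1 at -2.16, and Cd3e and Cd4 lie near the median.

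The CD3 subunits, which are assembled together in 1 receptor complex, did not share a direction. Cd3g, with a single probe, read 208 ± 37.2 in Villin-Cre colon and 504 ± 52.3 in EP4 cKO colon, 2.42-fold higher (log2 ratio 1.28 ± 0.30). The brighter probe of Cd3e read 3069 ± 308 and 2861 ± 286, and this log2 ratio of -0.10 ± 0.20 was within the scanner error and close to the median of all genes. Its dimmer probe read 319 ± 41.4 and 184 ± 21.9, 1.73-fold lower (-0.79 ± 0.25). Cd3e was therefore near the level of the control by one probe and lower by the other, and higher by neither.

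Cd3d gave opposite answers by its probes. The brighter probe read 1245 ± 129 in Villin-Cre colon and 722 ± 73.7 in EP4 cKO colon, 1.72-fold lower (log2 ratio -0.79 ± 0.21). The dimmer probe read 650 ± 71.4 and 1215 ± 122, 1.87-fold higher (0.90 ± 0.22). All 4 signals were well above background and each ratio was more than 3 times its scanner error, so no direction can be given for Cd3d.

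Cd3d and Cd3g lie head to head on chromosome 9, with 1355 bases between their starts, and their windows are shown because the genes are neighbours and Cd3g alone of the CD3 genes passed 2-fold: Cd3d at chr9:44981536-44981835 (plus strand) and Cd3g at chr9:44980382-44980681 (minus strand), on GRCm38.p6, with the same meaning of the capitals.
Cd3d: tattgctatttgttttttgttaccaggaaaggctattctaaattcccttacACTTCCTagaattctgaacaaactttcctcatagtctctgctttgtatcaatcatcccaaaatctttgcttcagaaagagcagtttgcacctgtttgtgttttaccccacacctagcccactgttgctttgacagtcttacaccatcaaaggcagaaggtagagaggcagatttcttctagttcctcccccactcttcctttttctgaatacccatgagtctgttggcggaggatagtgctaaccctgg
Cd3g: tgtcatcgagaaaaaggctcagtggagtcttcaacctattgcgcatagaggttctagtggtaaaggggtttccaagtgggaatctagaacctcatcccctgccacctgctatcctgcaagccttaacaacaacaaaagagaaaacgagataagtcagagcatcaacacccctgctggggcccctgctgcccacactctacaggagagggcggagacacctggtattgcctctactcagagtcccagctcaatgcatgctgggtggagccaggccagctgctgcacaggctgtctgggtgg
The Ets letters occurred 199 bases before the Cd3d start, and none of the 3 sets of letters in the Cd3g window. Of the 4 member windows outside the granule genes, those of Cd3d, Cd3e, Cd3g and Cd8a, 0 held the Runx letters and 2 the Ets letters (Cd3d and Cd3e).

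Beyond CD3, 12 genes of the T cell receptor complex and its signaling were measured on both arrays, and all but 1 lay within 2-fold. Of 25 listed genes 20 had a value, and Cd6, a surface receptor of T cells, was the 1 past 2-fold higher (5.0%, against 4.88% of all genes), at 194 and 476 (log2 ratio 1.29). The median log2 ratio was 0.46. Of the 20 values 8 were bounds from the EP4 cKO array only, 4 of them set to 0. A bound below 2-fold does not place a gene within 2-fold. Txk read 59.5 and 227 (at least 1.81-fold) and Lcp2 26.7 and 105 (set to 0). Cd247, the zeta chain that completes the CD3 complex, read 17305 and 12254 (-0.50). Fyn, Themis, Cd27, Grap2 and Prkcq were not well above background on either array. For the constant regions of the receptor chains (7 genes listed) no probe matched.

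Of the coreceptors, Cd8b1 was higher, Cd4 differed little by its brighter probe and Cd8a was hardly measurable. Cd8b1, the CD8 beta chain of conventional cytotoxic T cells, read 181 ± 36.0 in Villin-Cre colon and 489 ± 50.9 in EP4 cKO colon, 2.71-fold higher (log2 ratio 1.44 ± 0.32), and 2.70% of genes were higher still. The brighter probe of Cd4 read 6749 ± 675 and 7641 ± 764 (0.18 ± 0.20), which is within the scanner error. Its dimmer probe read 144 ± 31.7 on the Villin-Cre array and 37.6 ± 13.3, not well above background, on the EP4 cKO array, at least 2.48-fold lower. By neither probe was the Cd4 signal of EP4 cKO colon past 2-fold above the control.

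Cd8a encodes the alpha chain, found with CD8 beta on conventional cytotoxic T cells and alone, as a homodimer, on many lymphocytes of the gut epithelium. Its brighter probe read 88.6 ± 28.8 on the Villin-Cre array, not well above background, and 119 ± 17.2 on the EP4 cKO array. No fold above 1 could be given, since 119 lies below the Villin-Cre floor of 125. The other probe read 31.4 ± 31.6 and 21.7 ± 14.3 and stayed near background on both arrays. The alpha chain was thus not measured well enough to be set beside the difference in Cd8b1.

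Itgae, the αE chain (CD103) carried by lymphocytes and some dendritic cells of the gut, was higher. It read 159 ± 35.5 on the Villin-Cre array, not well above background, and 523 ± 54.2 on the EP4 cKO array, at least 3.30-fold higher (log2 ratio of at least 1.72). Itgb7, its β7 partner, read 436 and 766 (0.81), above the control but within 2-fold. Cdh1, the E-cadherin gene of the epithelium, read 67618 and 62930 (-0.10), close to the median of all genes. Of 10 dendritic cell genes 4 had a value, with a median of -0.03. Itgax was 3.32-fold higher (152 and 505), Siglech read 238790 and 213032 (-0.16) and Ccr7 149 and 144 (-0.05). Zbtb46 (74.3 and 77.4) was well above background on the EP4 cKO array only, with no fold above 1, and was set to 0. The median therefore does not show that dendritic cells were alike. Whether the bright Siglech signal comes from dendritic cells was not tested. The part of these genes in the Itgae difference was not tested either.

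Signals that draw lymphocytes to the epithelium and keep them there moved unequally. Of 34 listed genes for homing and retention 30 had a value, 8 past 2-fold higher (26.7%, against 4.88% of all genes) and 0 past 2-fold lower (against 7.98%), and their median log2 ratio was 0.34. Cxcl10, a chemokine for T cells and NK cells with the receptor CXCR3, read 308 and 2915 (log2 ratio 3.24). Cxcl16, the ligand of CXCR6, read 245 and 940 (1.94). Btnl2, a butyrophilin-like gene of the epithelium, read 194 and 1325 (2.77). The other 5, named after their values were seen, were Btnl6 (227 and 803, 1.82) and, as bounds, Cxcr6 (1.57), Cxcl9 (1.33), Btnl4 (1.19) and Cx3cr1 (1.03). Btnl1, which works with Btnl6 in holding γδ T cells in the gut epithelium, read 6346 and 8525 (0.43).

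The interleukin-15 pair, by which epithelial cells sustain intraepithelial lymphocytes and NK cells, lay within 2-fold. Il15 read 9468 in Villin-Cre colon and 6180 in EP4 cKO colon (log2 ratio -0.62). Il15ra, which presents it, read 13052 and 7827 (-0.74), the lowest value of the homing list, and 1 of its 3 probes had the opposite sign. Il2rb, the receptor chain through which interleukin-15 signals, was higher, at 230 and 504 (1.13), and both of its probes were more than 2-fold higher. Itgal, the αL chain of LFA-1, read 290 and 187 (-0.64).

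The genes of NK cells gave little to set beside the granzymes. Of 19 listed receptor genes of NK and innate-like lymphocytes 10 had a value, with a median log2 ratio of 0.15, and Il2rb alone was more than 2-fold different. Klrd1 (CD94), shared by NK cells and some cytotoxic T cells, read 336 and 620 (0.88). Ncr1 (NKp46), the receptor that defines NK cells and some innate lymphoid cells, stayed near background on both arrays, as did Klrc1, Klre1, Klrg1 and Cd160. At this signal over background, NK cells could not be followed by their defining receptor.

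Few transcription factors of lymphocytes passed 2-fold. Of 20 listed 16 had a value, 1 past 2-fold higher (6.25%, against 4.88% of all genes) and 2 past 2-fold lower (12.5%, against 7.98%), and the median log2 ratio was 0.08. Prdm1 (Blimp-1), a factor of effector lymphocytes and plasma cells, read 186 and 527 (2.84-fold higher). Bcl11b, a factor that fixes T cell identity, read 1610 and 774 (-1.06), and Rora read 323 and 118 (-1.45). Foxp3, the factor of regulatory T cells, read 125 and 96.4, well above background on the EP4 cKO array only and with no fold above 1. Of 17 cytokine and chemokine genes of T cells 8 had a value, with a median of 0.45, and 1 was past 2-fold each way: Xcl1 was higher (154 and 309, 2.01-fold) and Ccl3 lower (208 and 99.9, -1.05). Both lay in decile 2 of mean signal, where 9.13% of genes were past 2-fold higher and 21.2% past 2-fold lower. Of 16 activation markers 3 had a value and none of these was more than 2-fold different.

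**Figure D3:**
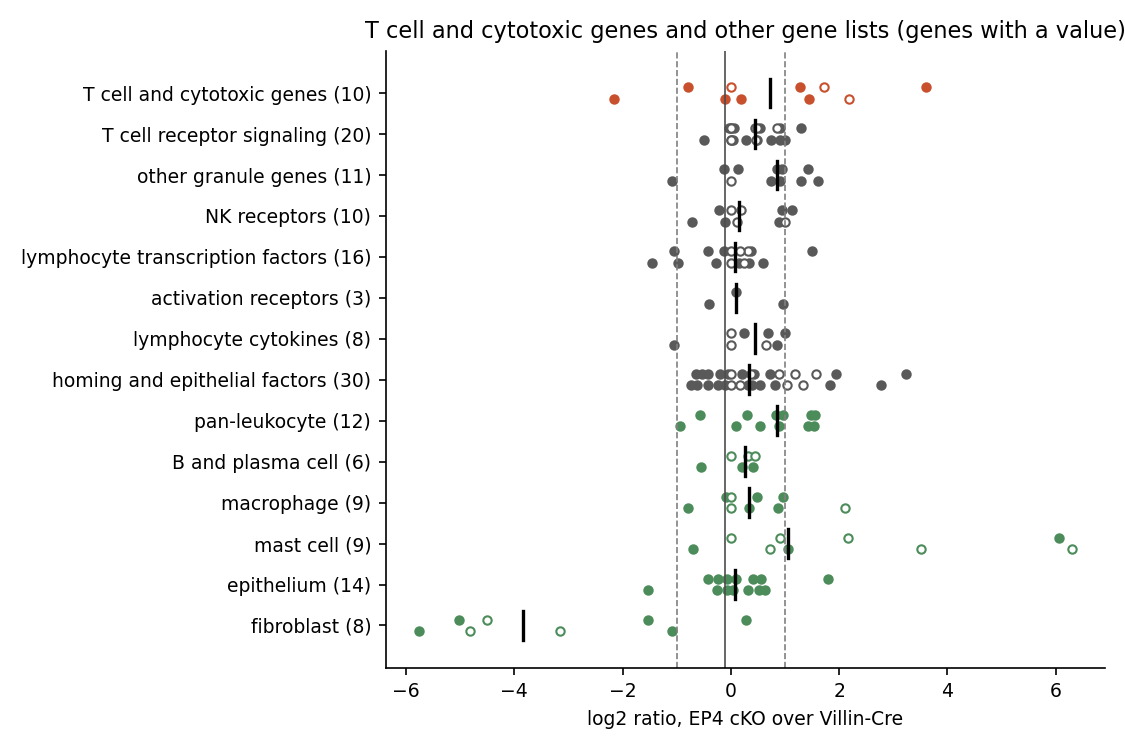
Log2 ratio of EP4 cKO over Villin-Cre for the genes with a value in each list (number in brackets), with a black bar at each list's median, open symbols for bounds, a solid line at the median of all genes and dashed lines at 2-fold (orange for the 10 genes described, grey for lymphocyte and homing lists, green for cell type markers). The T cell and cytotoxic genes spread from -2.16 to 3.60. The values of the T cell receptor signaling genes, 8 of 20 of them bounds, lie between -0.50 and 1.29.

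Of 12 markers of all leukocytes with a value, 4 were more than 2-fold higher (33.3%, against 4.88% of all genes), namely Lcp1, Coro1a, Rac2 and Cd52, with log2 ratios from 1.43 to 1.55. None was more than 2-fold lower (against 7.98%), and the median was 0.86. Ptprc (CD45), the surface phosphatase of all leukocytes, read 416 and 813 (0.97), while Cd37 (-0.93) and Laptm5 (-0.58) were below 0. The summed signal of the list went from 13003 to 20186, a log2 ratio of 0.63. Mast cell genes differed by more, with 5 of 9 more than 2-fold higher (55.6%) and summed signals of 3954 and 26825, while 7 of 8 fibroblast genes (87.5%) were more than 2-fold lower, with summed signals of 15369 and 2432 (Thy1, which T cells also carry, was the exception at 0.29). Among fibroblast genes measured on both arrays Dcn (-5.77) and Col1a2 (-5.03) were lowest, and Pdgfrb read -1.52 and Fbln1 -1.09. The part of cell mixture in the values of the T cell and cytotoxic genes was not tested.

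Many probes of the T cell and cytotoxic genes were dim. Of the 14, 9 were well above background on both arrays, 3 on the EP4 cKO array only, 1 on the Villin-Cre array only and 1 on neither, and 8 had a Villin-Cre signal of at most 3 times the floor. Cd3g, Cd8b1, Gzmb and Itgae lay in the third decile of genes by mean signal, where 8.17% of genes were past 2-fold higher, 17.1% past 2-fold lower and the median log2 ratio was -0.29. Gzmb and Itgae have a value there through the EP4 cKO array only. Gzma and Cd3e lay in the sixth decile and Cd4 in the eighth, where the medians were -0.16 and -0.08.

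The choice of processing changed the side of 2-fold for Cd3d, Cd3g and Cd4 under 1 alternative each, and for none of the other 7 genes. Over the 8 alternatives Gzma stayed between 3.24 and 4.67 on the log2 scale and Prf1 between -2.16 and -1.09, and over 7 alternatives Gzmb stayed between 1.63 and 3.77 and Itgae between 1.19 and 2.79. Cd8b1 ranged from 1.05 to 2.51. Cd3g fell within 2-fold after normexp background correction with quantile normalization (0.87) and reached 2.35 with scaling to the E1A control spots. E1A scaling adds 1.07 to the log2 ratio of a probe measured on both arrays, and the median of all genes then lay at 0.90. Under it Cd4 passed 2-fold (1.25), Cd3e read 0.97, and Cd3d read 1.97 because its other probe became the brighter, as it also did with normexp, while the probe used as reported read 0.28.

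**Figure D4:**
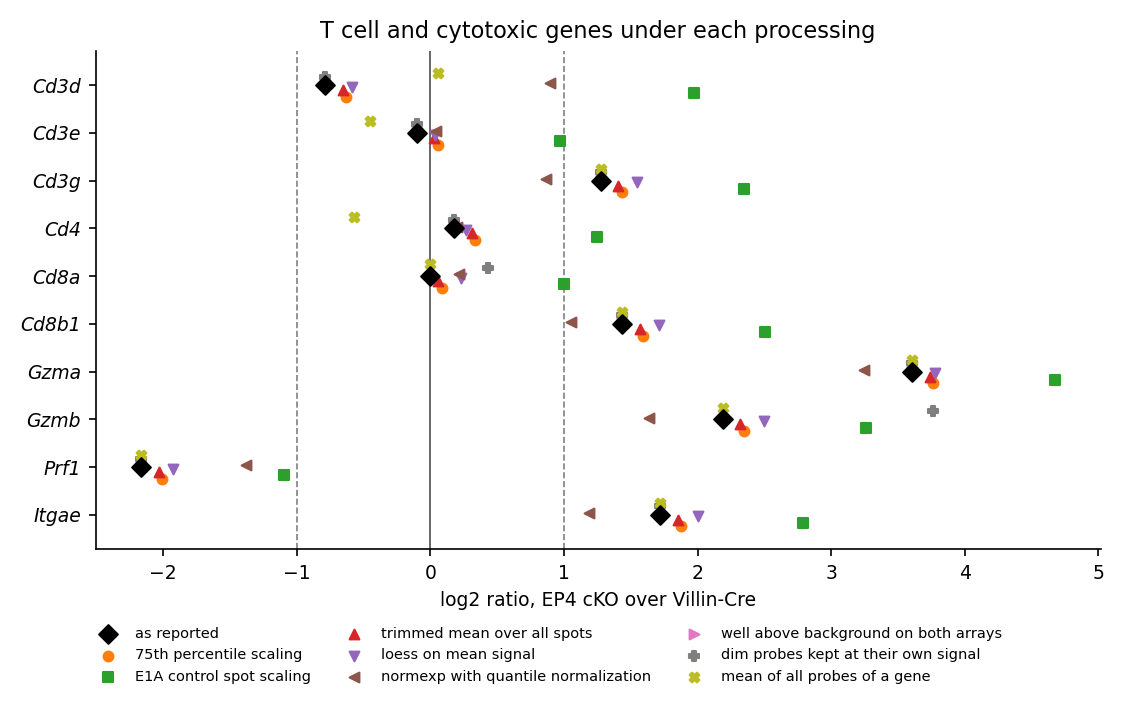
Log2 ratio of EP4 cKO over Villin-Cre of each gene as reported and under each alternative processing (symbols), with dashed lines at 2-fold. Gzma, Gzmb, Itgae and Cd8b1 stay above 1 and Prf1 below -1 in every setting that gives a value, while Cd3d runs from -0.79 to 1.97.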

How the data were processed

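The authors deposited 1 scanner table per array, made with Agilent Feature Extraction (11.5.1.1 in the submitters' processing notes, 12.0.3.1 in the file header). The deposited intensity used here is the processed signal, background-subtracted and detrended by the software. The authors' scaling is not in these intensities and was repeated: control spots and outlier spots of either array (147 and 126) were removed, spots of a probe were averaged, and each array was scaled to a 2% trimmed mean of 2500 (unscaled 724 for Villin-Cre and 931 for EP4 cKO). Samples were grouped by the genotype in their labels.

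Probes were named by RefSeq accession through a gene table of GRCm38.p6 (32989 of 56593 matched, 22909 genes). Of named genes, 14679 had a probe well above background on at least 1 array. No spot was saturated. The 289 probes that had 10 spots and were well above background on both arrays had a median SD of 0.0347 for the log2 ratio between spots. Precision is limited by the number of arrays, and no test was possible with 1 array per genotype.

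The 10 genes and all gene lists were chosen with earlier results of these data known. Named beside them were, of each list, the genes past 2-fold if at most 6, otherwise the 3 largest and 2 smallest ratios measured on both arrays, and Ptger4, Ptprc, Cd247, Klrd1, Ncr1, Foxp3, Cdh1, Itgb7 and Il15. Any other gene was named after its values were seen. Promoter windows from RefSeq were found for 7 of the 10 genes, and those of Cd4, Cd8b1 and Itgae were not used here.

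The alternatives were scaling to the 75th percentile or to the E1A control spots (7 probes), a trimmed mean over all spots, loess on mean signal (span 0.3), normexp (offset 50, on the median signal) with quantile normalization, probes well above background on both arrays, dim probes at their own signal, the mean of a gene's probes, and thresholds of 1.5-fold and 3-fold. The steps were tested on simulated data. Python 3.11.15 with numpy 2.4.6 and pandas 2.3.3, matplotlib 3.10.9 and limma 3.58.1 under R 4.3.3 were used.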

Additional observations from a re-analysis of the deposited data

How the results depend on the processing

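Of the 10 genes, 5 were past 2-fold higher and 1 past 2-fold lower as reported. The higher count was 7 with scaling to the E1A control spots, 4 with normexp and quantile normalization, 3 with only probes well above background on both arrays, which leaves 7 genes, and 3 at a 3-fold threshold, and the lower count was 2 at 1.5-fold. The median log2 ratio of 0.73 became 0.88 with scaling to the 75th percentile, 2.16 with the E1A control spots, 0.86 with a trimmed mean over all spots, 0.91 with loess, 0.88 with normexp and quantile normalization, 0.18 with probes measured on both arrays, 0.85 with dim probes at their own signal and 0.67 with the mean of a gene's probes. The median of all genes turned from -0.10 to 0.90 with the E1A spots, which put 41.8% of genes past 2-fold higher, against 4.88% as reported. The 75th percentile put 6.42% of genes higher and 6.27% lower, and keeping dim probes put 31.7% lower.

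The opposite probes make Cd3d depend on which is brighter: it read 0.89 with normexp, and 1.97 with the E1A spots, where the other probe became the brighter, and 0.06 as a mean of both. Cd4 read -0.57 as a mean of its probes. Genes were not named by a gene name column, which the files used here do not hold, and no array could be left out with 1 per genotype. No paired analysis was possible because each genotype has 1 array. Signal over background limits Cd8a, Gzmb and Itgae, whose values are bounds.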

Other observations

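Markers of other immune cells, set beside the T cell and cytotoxic genes, differed unevenly. Of 13 B cell and plasma cell genes 6 had a value (median log2 ratio 0.26). Of these 3 were measured on both arrays and none of the 3 was more than 2-fold different, while 3 were bounds below 2-fold. Of 10 genes of lymphoid follicles 4 had a value, and Gp2, a receptor of the M cells over the follicles, was lower (248 and 92.7, -1.42). Gp2 lay in decile 2 of mean signal, where 21.2% of genes were past 2-fold lower. Of 12 macrophage genes 9 had a value, 3 of them as bounds. By these values Mrc1 was the 1 past 2-fold higher (11.1%, against 4.88% of all genes), by at least 4.31-fold. Adgre1, a macrophage surface receptor, stayed near background on both arrays. Of 10 neutrophil genes 5 had a value and 3 were more than 2-fold higher (60.0%, against 4.88% of all genes): S100a9 (2.39-fold) and, well above background on the EP4 cKO array only, Ltf (at least 7.51-fold) and S100a8 (at least 2.83-fold). Elane read 2350 and 2097 (-0.16) and Csf3r 106452 and 81629 (-0.38). Over the 3 genes measured on both arrays the median was -0.16. Whether the Elane and Csf3r probes report neutrophils in this tissue was not tested. Mpo, Cxcr2, Camp and Ngp stayed near background on both.

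Of 9 mast cell genes with a value, the proteases Mcpt1 (at least 79.0-fold), Mcpt4 (166 and 11093, 66.9-fold), Mcpt2 (at least 11.3-fold) and Cma1 (815 and 1687, 2.07-fold) were higher. Cpa3, a carboxypeptidase of mast cell granules, was at least 4.49-fold higher, while Kit, the mast cell receptor for stem cell factor, read 2615 and 1604 (-0.71). Among epithelial genes Krt20, a keratin of surface cells, was 3.48-fold higher and Chga, a granule protein of enteroendocrine cells, 2.88-fold lower. Of endothelial genes 4 of 8 had a value and none was more than 2-fold different.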
